A study of Sus scrofa with 6 samples.

Results

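The genes described here are 10 markers of smooth muscle cells and pericytes, ACTA2, ACTG2, TAGLN, MYH11, CNN1, MYL9, MYLK, CALD1, RGS5 and SMTN. Their probe sets were found by symbol: every probe set to which the platform annotation gives exactly 1 gene symbol was taken if that symbol was among them. Of the 10 genes, 9 had a probe set and MYH11, the smooth muscle myosin heavy chain, had none. The 9 genes, of 6765 named on the array, were read by 13 probe sets of the 24123 on the Affymetrix Porcine Genome Array, of which 23999 were tested. RNA came from the left ventricular (LV) free wall of Large White piglets (Sus scrofa). In the Dox group, 3 piglets received doxorubicin once into a vein, at 2.0 mg/kg and 8 days of age, and in the PBS group 3 piglets received phosphate-buffered saline instead. Tissue was taken 3 weeks later, at a labelled age of 28 days. Dose and ages are those of the labels, and the study's methods state an earlier injection, a dose range and a later tissue collection. The arrays Dox 1 to 3 and PBS 1 to 3 are named by the group and replicate number of the labels. Doxorubicin is an anthracycline used against tumours and known for its toxicity to heart muscle, and in the study it served to induce diastolic heart failure. The comparison asks how transcripts of the vessel wall differ between the Dox and PBS myocardium.

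Smooth muscle cells surround the coronary arteries and arterioles, and pericytes wrap the capillaries. In smooth muscle, calcium bound to calmodulin activates myosin light chain kinase (MYLK), which phosphorylates the regulatory light chain (MYL9) of smooth muscle myosin (MYH11), and the myosin then pulls on filaments of alpha and gamma smooth muscle actin (ACTA2 and ACTG2). Calponin 1 (CNN1), caldesmon (CALD1), transgelin (TAGLN) and smoothelin (SMTN) bind these actin filaments. RGS5 shortens signalling from receptors coupled to G proteins and is widely used as a marker of pericytes. Several of these genes are not confined to vessels: ACTA2 also marks myofibroblasts and immature cardiomyocytes, and CALD1 and MYL9 are made by many cells that are not muscle.

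Values are MAS5 signals, linear intensities that the authors scaled so that the arrays have the same trimmed mean, and a signal can be compared between arrays for 1 probe set but not between probe sets. As a background, each array's highest signal among its Tag probe sets, which carry synthetic sequences, was 2.5 to 6.3, and the median signal over all probe sets was 13.5 to 17.8. All 13 measured genes of a cardiomyocyte list were above the array median on all 6 arrays, as a check of the labelled tissue. The arrays PBS 1 and Dox 3 stood apart in other cell type markers. The summed signal of 11 fibroblast genes was 7067 on PBS 1, 4492 and 5465 on the other PBS arrays, 4383 and 2702 on Dox 1 and Dox 2, and 2161 on Dox 3. The summed cardiomyocyte signal ran the other way, from 52013 on PBS 1 to 83851 on Dox 3. The ratio of the 3′ to the 5′ actin control, a measure of RNA integrity and labelling, was 1.96 to 2.63 in the PBS group and 6.04, 3.96 and 2.20 on Dox 1, Dox 2 and Dox 3. That of the GAPDH control differed less, at 1.16 to 1.28 in the PBS group and 1.55, 1.26 and 1.24 on Dox 1, Dox 2 and Dox 3. The labels do not say whether animals shared a litter or a processing day. The limma p-values set a group difference against the spread between these 6 arrays within their groups, moderated over all probe sets tested.

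The threshold asked for a fold of 2 or more together with an adjusted p no higher than 0.05, and none of the 13 probe sets passed it. Nor did any other probe set on the array (0 of 23999, 0%, limma with Benjamini-Hochberg adjustment). When the unadjusted limma p was used in its place, 1 of the 13 passed, a probe set of ACTG2 that was lower in the Dox group, against 5.65% of all probe sets. The PBS and Dox signals did not overlap for 1 of the 13, the dimmer ACTG2 probe set, against 16.3% of all probe sets. At the brightest probe set of each gene, and without MYLK, whose signals lay within the range of the Tag probe sets, 3 genes had a higher and 5 a lower mean log2 signal in the Dox group. The median log2 difference of these 8 genes was -0.16, beside -0.13 over all 17069 probe sets above the Tag range on at least 3 arrays, of which 60.8% were lower in the Dox group. The share without overlap was below that of the whole array, and the other share and the median were close to it.

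**Figure D1:**
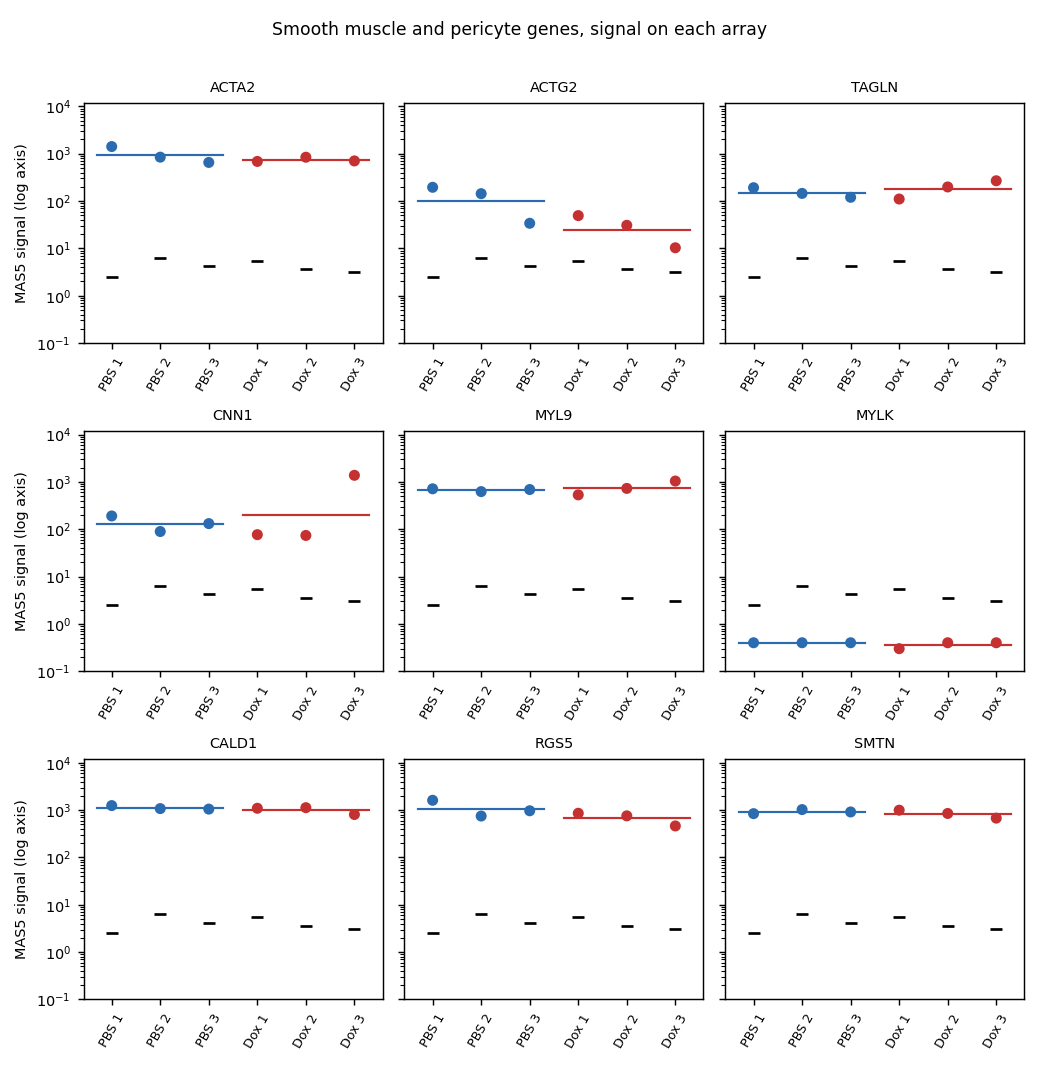
MAS5 signal (log axis) of each gene on each array, read at the brightest probe set. Points are single animals (blue for PBS, red for Dox), coloured lines are the geometric means of the 3 arrays of a group, and black dashes mark the highest Tag signal of each array. CNN1 reaches 1378.5 on Dox 3 and lies between 73.9 and 190.8 on the other arrays, ACTG2 is lowest on Dox 3, at 10.3, and MYLK lies under the Tag dash on every array.

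The largest difference was that of an actin. Gamma smooth muscle actin, ACTG2, is the actin of visceral smooth muscle and is also made in vessels. At its brighter probe set the signals were 195.1, 143.1 and 33.9 on PBS 1, PBS 2 and PBS 3 and 49.2, 30.7 and 10.3 on Dox 1, Dox 2 and Dox 3. The groups overlapped because PBS 3 lay below Dox 1, and Dox 3 was the lowest of all. The mean was 124 ± 82.3 (SD, n = 3) in the PBS and 30.1 ± 19.5 (SD, n = 3) in the Dox group, and the geometric mean was 3.93-fold higher in the PBS group. The log2 difference, Dox minus PBS, was -1.98 (95% confidence interval -3.67 to -0.29, limma p = 0.0270, adjusted p = 0.521, exact two-sided permutation p = 0.2). The difference did not hold after adjustment over the array, and an exact permutation test of 3 against 3 arrays cannot go below 0.1.

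The second ACTG2 probe set gave 25.5, 24.6 and 24.2 on the PBS arrays and 17.8, 20.2 and 10.9 on Dox 1, Dox 2 and Dox 3. All 3 Dox signals lay below all 3 PBS signals, with Dox 3 again the lowest. The log2 difference was smaller, -0.65 (interval -1.45 to 0.14, limma adjusted p = 0.567, exact permutation p = 0.1). Both ACTG2 probe sets thus had the same sign and did not pass the adjusted threshold.

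Alpha smooth muscle actin, ACTA2, is the principal actin of vascular smooth muscle. Its signals were 1415, 845 and 653.9 on PBS 1, PBS 2 and PBS 3 and 686.6, 842.5 and 703.2 on the Dox arrays. PBS 1 was the highest and PBS 3 the lowest, so that all Dox signals lay within the PBS range. The means were 971 ± 396 and 744 ± 85.6 (SD, n = 3 each), and the log2 difference was -0.31 (interval -0.94 to 0.31, limma adjusted p = 0.702, exact permutation p = 0.6). Without PBS 1 the difference was -0.0047, so its size rested on that animal.

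Among the proteins that bind actin filaments, calponin 1 had the largest single deviation. The CNN1 signals were 190.8, 89.5 and 131.6 on the PBS arrays, 76.8 and 73.9 on Dox 1 and Dox 2, and 1378.5 on Dox 3. The value on Dox 3 was 7.22 times the next highest, while Dox 1 and Dox 2 were the lowest of the 6. The log2 difference of 0.60 (interval -1.68 to 2.88, limma adjusted p = 0.856, exact permutation p = 1) was therefore set by 1 animal, and without Dox 3 its sign turned, to -0.80. The Dox SD, 752, exceeded the Dox mean of 510.

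Transgelin, TAGLN, an early marker of smooth muscle differentiation, read 191.3, 144.9 and 119.9 on the PBS and 110.3, 198.4 and 268 on the Dox arrays. Dox 1 was the lowest and Dox 3 the highest, with the PBS arrays between Dox 1 and Dox 2. The log2 difference was 0.27 (interval -0.51 to 1.06, limma adjusted p = 0.798, exact permutation p = 0.6), and it was -0.01 without Dox 3.

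Caldesmon, CALD1, which restrains the actin-activated ATPase of myosin, was among the steadiest of these genes. Its brighter probe set gave 1246.2, 1076.9 and 1050.4 on the PBS and 1093.5, 1126.4 and 807.6 on the Dox arrays, a log2 difference of -0.17 (interval -0.59 to 0.25, limma adjusted p = 0.765). Its highest signal was 1.54 times its lowest. The dimmer CALD1 probe set gave 44, 69.7 and 82 on the PBS and 96, 91.4 and 44.3 on the Dox arrays, a log2 difference of 0.21 (limma adjusted p = 0.867). The signs of both probe sets differed, the groups overlapped at each, and the mean of the 2 probe sets gave 0.02.

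Smoothelin, SMTN, found in contractile smooth muscle, varied as little. At the brightest of its 3 probe sets it read 842, 1026.3 and 914 on the PBS and 996.1, 849.8 and 677.3 on the Dox arrays. Dox 3 was lowest and PBS 2 highest, and the log2 difference was -0.15 (interval -0.59 to 0.28, limma adjusted p = 0.796, exact permutation p = 0.5). The second probe set ran from 15.5 on Dox 3 to 39.2 on PBS 2, with a log2 difference of -0.44 (limma adjusted p = 0.690). The dimmest ran from 1.4 to 6.6, lay within the Tag range on 2 arrays and had a log2 difference of -0.35 (limma adjusted p = 0.878), which was 0.28 without Dox 1.

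Of the motor and its activating enzyme, the light chain alone could be compared. MYL9, the regulatory light chain, read 715.2, 623.7 and 690.1 on the PBS and 532.2, 729.4 and 1042.5 on the Dox arrays. The Dox arrays spanned the PBS range on both sides, with Dox 1 lowest and Dox 3 highest. The log2 difference was 0.13 (interval -0.43 to 0.69, limma adjusted p = 0.873, exact permutation p = 0.7), and it was -0.12 without Dox 3. MYLK, the kinase, had signals of 0.3 on Dox 1 and 0.4 on the other 5 arrays, below the Tag signal of every array. No fold is given for it, and with every signal within the Tag range this probe set gives no level for the kinase transcript.

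RGS5, the pericyte marker among the 10, had signals of 1612, 749.5 and 968.3 on PBS 1, PBS 2 and PBS 3 and 857.6, 756.4 and 463 on Dox 1, Dox 2 and Dox 3. PBS 1 was highest and Dox 3 lowest, and the other 4 arrays interleaved. The means were 1110 ± 448 and 692 ± 205 (SD, n = 3 each). The log2 difference was -0.65 (interval -1.40 to 0.09, limma p = 0.0769, adjusted p = 0.546, exact permutation p = 0.3), and without PBS 1 it was -0.35. In whole tissue, fewer cells of a type and less RNA per cell cannot be told apart.

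**Figure D2:**
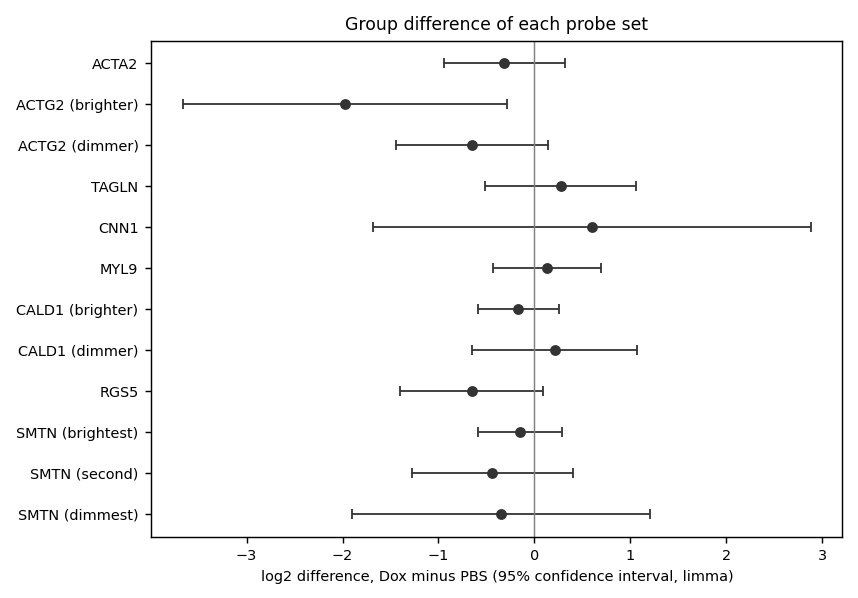
Difference in mean log2 signal between the 3 Dox and the 3 PBS arrays (points) with its 95% confidence interval from limma (bars) for the 12 probe sets above the Tag range on at least 3 arrays. The interval of the brighter ACTG2 probe set, -3.67 to -0.29, lies below 0 before adjustment, the intervals of all others include 0, and that of CNN1 is the widest.

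The 8 genes read above the Tag range differed in how much they varied within a group. The coefficient of variation among the PBS arrays was 6.99% for MYL9, 9.45% for CALD1 and 10.01% for SMTN. It was 40.4% for RGS5, 40.8% for ACTA2 and 66.3% for ACTG2. Among the Dox arrays it ranged from 11.5% for ACTA2 to 148% for CNN1. The precision of each difference is limited by 3 arrays a group, and the narrowest intervals among these genes, those of CALD1 and SMTN, ran from -0.59 to 0.25 and from -0.59 to 0.28 on the log2 scale.

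The order of the arrays was shared by some of these genes and not by others. PBS 1 had the highest signal for ACTA2, ACTG2, CALD1 and RGS5, and PBS 2 for SMTN. Dox 3 had the highest for TAGLN, CNN1 and MYL9 and at the same time the lowest for ACTG2, CALD1, RGS5 and SMTN. On the log2 scale Dox 3 deviated from the PBS mean by 3.40 for CNN1, 0.84 for TAGLN and 0.63 for MYL9, and by -3.25 for ACTG2, -1.19 for RGS5, -0.47 for CALD1 and -0.45 for SMTN. Genes of the same contractile apparatus thus lay on opposite sides of the PBS mean in 1 animal. PBS 1 was also the array with the highest summed fibroblast, pericyte, endothelial and red cell marker signals and the lowest cardiomyocyte sum, and Dox 3 the array with the lowest fibroblast and pericyte and the highest cardiomyocyte sums. The part of these markers in the values of the smooth muscle genes was not tested.

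**Figure D3:**
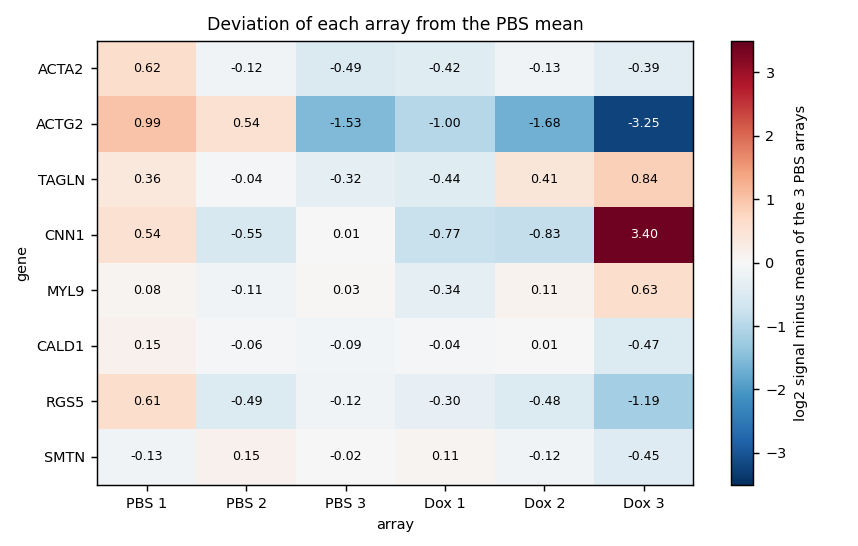
Log2 signal of each gene on each array minus the mean log2 signal of the 3 PBS arrays, at the brightest probe set, for the 8 genes above the Tag range. Red cells lie above and blue cells below the PBS mean, and the Dox 3 column holds both extremes, 3.40 for CNN1 and -3.25 for ACTG2.

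Other genes of the smooth muscle programme were read from lists grouped by function, at 1 probe set per gene and without genes mostly within the Tag range, and no gene of any of them passed the adjusted threshold. Of 26 partners of the contractile filaments, 17 were measured, with 7 higher and 10 lower in the Dox group and a median log2 difference of -0.15. At an unadjusted limma p of at most 0.05, 1 was higher and 1 lower, that is 2 of 17, where 9.54% of all probe sets had such a p. Of the 17069 probe sets above the Tag range, 641 were higher and 1225 lower at that p. FLNA, filamin A, which cross-links actin filaments, read 215.9, 131.7 and 123.3 on the PBS and 80.3, 104.9 and 74.4 on the Dox arrays. The groups did not overlap, and the log2 difference was -0.83 (limma p = 0.0173, adjusted p = 0.521, exact permutation p = 0.1). TPM2, beta-tropomyosin, read 860.6, 1086.3 and 821.6 on the PBS and 980.1, 1658.4 and 2690.7 on the Dox arrays. Its signal was highest on Dox 3 and overlapped between the groups, with a log2 difference of 0.84 (limma p = 0.0344, adjusted p = 0.521, exact permutation p = 0.2) that was 0.48 without Dox 3. The other TPM2 probe sets gave 0.80, 0.98 and, at the dimmest, -0.34. The study counts TPM2 among skeletal muscle genes. In whole tissue the values of this list are not readings of smooth muscle alone. MYL6, the essential light chain that pairs with MYL9, had a log2 difference of -0.45 and TPM1 of 0.29, and that of TPM1 was -0.06 after quantile normalization. The median of the list was 0.05 without PBS 1 and above 0 also without Dox 1 or Dox 2.

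Paralogues of the 10 genes were examined because probe sets of near-identical transcripts can share hybridization. Of 22 paralogues 15 were measured, 9 higher and 6 lower in the Dox group, with a median log2 difference of 0.09 that was -0.03 after quantile normalization and -0.01 without Dox 3. Of the cytoplasmic actins, ACTB had a log2 difference of 0.31 (limma adjusted p = 0.626). The brightest probe set annotated as ACTG1 had one of 0.33 (limma adjusted p = 0.544) without overlap, and -0.03 after quantile normalization. The study lists that probe set as ACTA1, the skeletal alpha actin, so it is not a sure reading of cytoplasmic actin. The next brightest ACTG1 probe sets gave 0.32 and -0.06, with overlap at both. ACTC1, the cardiac actin, read between 5082.9 and 6487.4 with a log2 difference of 0.09, which was -0.24 after quantile and -0.18 after cyclic loess normalization. RGS4, a relative of RGS5 that is also a pericyte marker, read 107.1, 49.5 and 55.1 on the PBS and 44.3, 4.6 and 14.1 on the Dox arrays. The groups did not overlap, and the log2 difference was -2.22 (limma p = 0.0156, adjusted p = 0.521, exact permutation p = 0.1). RGS1, found chiefly in lymphocytes, read 2.1, 16.8 and 1.3 on the PBS and 24, 9.7 and 15.3 on the Dox arrays. Its log2 difference was 2.09 (limma p = 0.0480, adjusted p = 0.523, exact permutation p = 0.3) between overlapping groups. As 2 of its PBS signals lay within the Tag range, the size of that difference is uncertain, and a dimmer probe set gave -0.02. TAGLN3, the neuronal relative of transgelin, read 4.2 to 8 on the PBS and 8.6 to 16.2 on the Dox arrays.

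Genes that set light chain phosphorylation and vascular tone gave no common direction. The list held 28 symbols, some of them older and newer names of the same gene, and 18 were measured. Of these 16 read above the Tag range, 8 higher and 8 lower. Their median log2 difference of 0.06 fell on either side of 0 as single arrays or the dim probe sets were left out. EDNRB, an endothelin receptor, was dim in the PBS group, at 3.9, 5.5 and 4.6, and read 6.8, 12.3 and 22.7 on the Dox arrays (log2 difference 1.42, limma p = 0.0257, adjusted p = 0.521, exact permutation p = 0.1). Its PBS 2 signal lay within the Tag range, so the size of that difference is uncertain, and the other EDNRB probe set lay within that range on 5 arrays. CALM3, a calmodulin gene, had a log2 difference of -0.49 at its brightest probe set (limma p = 0.0398, adjusted p = 0.521, exact permutation p = 0.1) and of 0.23 at the next brightest, and the groups overlapped at neither. GUCY1B3, a subunit of the guanylate cyclase that senses nitric oxide, had a log2 difference of -0.50, with 77.2 to 117 on the PBS and 55.6 to 67.9 on the Dox arrays. KCNMB1, the smooth muscle subunit of the calcium-activated potassium channel, had one of -1.06 between overlapping groups (limma adjusted p = 0.593).

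Regulators of smooth muscle genes include serum response factor, its partner myocardin and the Notch and TGF-beta pathways. The list held 28 symbols, some of them older and newer names of the same gene. Of these 13 were measured, serum response factor not among them, and 12 read above the Tag range, 7 higher and 5 lower. The median log2 difference was 0.23, and it was 0.11 without Dox 2 and 0.14 without Dox 3. SMAD3, which carries TGF-beta signals to the nucleus, read 24.6, 28.5 and 24.7 on the PBS and 29.9, 54.5 and 85.1 on the Dox arrays (log2 difference 1.0, limma p = 0.0327, adjusted p = 0.521, exact permutation p = 0.1). HEY2, a Notch target in arterial smooth muscle and in ventricular muscle, read 438.1 to 467.5 on the PBS and 548.3 to 602.2 on the Dox arrays, a log2 difference of 0.35 (limma p = 0.0564, adjusted p = 0.528, exact permutation p = 0.1). The groups did not overlap for either gene at these probe sets, while a dimmer HEY2 probe set gave -0.38 between overlapping groups. GATA6 and MEF2A, transcription factors active in both muscle types, had log2 differences of 0.42 and 0.23. A dimmer MEF2A probe set gave -0.07 between overlapping groups.

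Of 20 pericyte markers other than RGS5, 11 were measured, 4 higher and 7 lower (63.6%, beside 60.8% of all probe sets above the Tag range), with a median log2 difference of -0.40. That median is the value of STEAP4, which read 7.6, 19.8 and 25.4 on the PBS and 27.1, 29 and 2.1 on the Dox arrays. The groups overlapped, and its Dox 3 signal lay within the Tag range. At an unadjusted limma p of at most 0.05, 3 of the 11 were lower. Of all probe sets 5.92% were, and of the 17069 above the Tag range 1225 were. The median was -0.06 without Dox 3, -0.66 without Dox 1 and -0.03 with array weights, and it was -0.20 after cyclic loess normalization and also with an offset of 16 before log2. KCNJ8, the pore of a potassium channel gated by ATP that is abundant in cardiac pericytes, read 233, 247.1 and 237.2 on the PBS and 170.8, 90.2 and 80.6 on the Dox arrays. Every Dox signal lay below every PBS signal, and the PBS arrays were close together. The log2 difference was -1.15 (95% confidence interval -1.83 to -0.48, limma p = 0.00401, adjusted p = 0.521, exact permutation p = 0.1). A second KCNJ8 probe set gave -1.02 with no overlap, and the dimmest gave -0.17 with overlap.

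THY1, a surface protein of pericytes and fibroblasts, read 1419.4, 447.6 and 652 on the PBS and 561.8, 99.2 and 41.4 on the Dox arrays. The groups overlapped because Dox 1 lay above PBS 2, and Dox 3 was lowest. The log2 difference was -2.50 (limma p = 0.0172, adjusted p = 0.521, exact permutation p = 0.2). A second, dimmer THY1 probe set gave -2.53 with no overlap, from 43.8 on PBS 1 to 1.5 on Dox 3, the latter within the Tag range. The dimmest gave -1.35 with overlap. By contrast PDGFRB, the receptor by which endothelial cells recruit pericytes, read 640.4, 503.5 and 450.4 on the PBS and 448.9, 563.9 and 597.6 on the Dox arrays, a log2 difference of 0.02 (interval -0.45 to 0.49, limma adjusted p = 0.978). MCAM, a surface marker shared with endothelium, read 227.9 on PBS 1 and 64.4 to 91.1 on the other 5 arrays. PDGFRB and MCAM were chosen after their values were seen. ANGPT1, an angiopoietin secreted by pericytes, read 2.9 to 9.7, within the Tag range on 3 arrays.

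**Figure D4:**
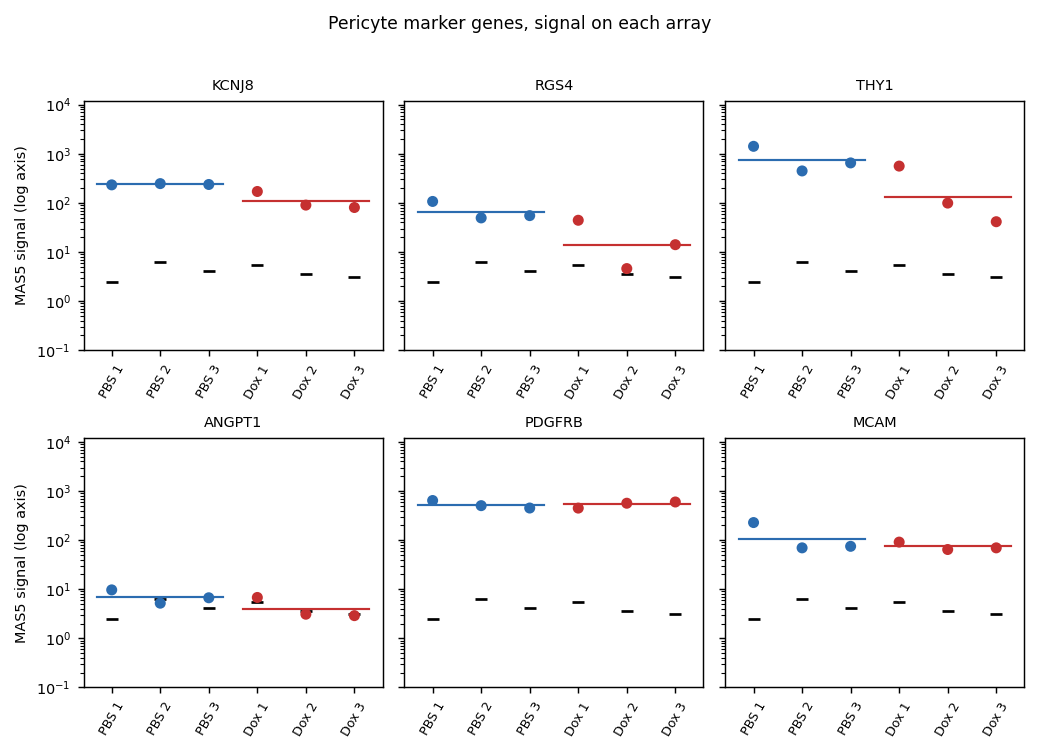
MAS5 signal (log axis) of 6 pericyte marker genes on each array, with points, lines and dashes as in the plot of the smooth muscle genes. KCNJ8 and RGS4 do not overlap between the groups, THY1 runs from 1419.4 on PBS 1 to 41.4 on Dox 3, PDGFRB overlaps throughout, and MCAM is high on PBS 1 alone.

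Markers of other cell types are given beside the pericyte list, and none of them passed the adjusted threshold. The summed signal of the 11 pericyte genes was 3028, 1726 and 1887 on the PBS and 1732, 1275 and 1167 on the Dox arrays. A sum weighs bright probe sets most. THY1, shared with fibroblasts, made up 1419.4, 447.6 and 652 of it on the PBS and 561.8, 99.2 and 41.4 on the Dox arrays. All 11 measured of 14 fibroblast genes had a lower mean in the Dox group, with a median log2 difference of -0.91. Of these, 6 were lower at an unadjusted limma p of at most 0.05 (5.92% of all probe sets, 1225 of the 17069 above the Tag range). Their sums were 4492 to 7067 in the PBS and 2161 to 4383 in the Dox group, and DCN, decorin, had a log2 difference of -0.91 (limma p = 0.00456, adjusted p = 0.521, exact permutation p = 0.1). Of 13 measured of 15 endothelial genes 5 were higher and 8 lower, with a median of -0.14 that was 0.06 without PBS 1. Their sums were 1737 to 2555 and 1615 to 1668, and TIE1 and CDH5, which mark endothelium, had log2 differences of -1.29 and -0.65.

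The cardiomyocyte list had 11 of 13 measured genes higher and 2 lower in the Dox group, with sums of 52013 to 63710 and 65200 to 83851. Its median log2 difference of 0.29 was -0.04 after quantile and 0.01 after cyclic loess normalization. Red cell genes summed to 799 on PBS 1 and to 113 to 294 on the other 5 arrays, and of 5 macrophage and leukocyte genes above the Tag range 2 were higher and 3 lower. The part of these markers in the pericyte values was not tested.

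**Figure D5:**
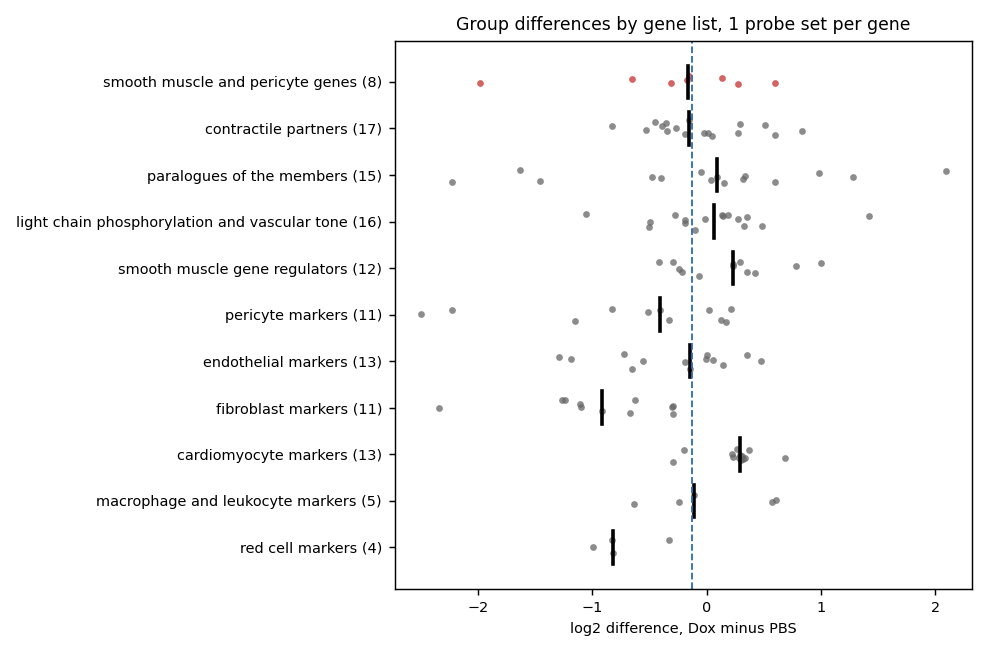
Log2 difference, Dox minus PBS, of each gene above the Tag range (points) by list, with the number of such genes in parentheses, the list median (black bar) and the median of all 17069 probe sets above the Tag range (dashed line, -0.13). Points are spread vertically for legibility. The smooth muscle and pericyte genes, with a median of -0.16, straddle the dashed line, the pericyte markers have a median of -0.40 and all fibroblast markers lie below 0.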

How the data were processed

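The authors processed the arrays with GCOS (version 1.4 per the submitters' notes), and the deposited values are MAS5 signal intensities on a linear scale. Signals of 0 were raised to 0.1 and log2 was taken. In R 4.3.3, limma 3.58.1 (lmFit, eBayes with an intensity trend) was fitted to the 6 arrays without further normalization, with Benjamini-Hochberg adjustment over 23999 probe sets; 124 array controls were left out. A probe set passed with a fold of 2 or more and an adjusted p no higher than 0.05. Exact permutation tests were two-sided. Signals no higher than the brightest Tag probe set on the same array were taken as within the Tag range, and no fold was read for a gene with 4 or more such signals. A gene was read at its brightest probe set, and all probe sets of the 10 genes are reported. Of each other list, up to 4 genes with the smallest limma p and every named actin are given; a few others are values only. The fit was tested on simulated data.

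The 10 genes, the lists and the tests were chosen with earlier results of these data known. All 13 probe sets matched the RefSeq symbol of their gene ID. Transcript, protein and promoter sequences were not analysed here. The same replicate number in both groups did not mark related arrays (correlations of deviations -0.01, 0.02 and -0.06). The fit was repeated without each array, with array weights, with the replicate number as a block, with no trend, after cyclic loess or quantile normalization, with an offset of 16, without dim probe sets, and with the mean over a gene's probe sets, and the methods' t-test was run.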

Additional observations from a re-analysis of the deposited data

How the results depend on the processing

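No probe set of the 10 genes passed the adjusted threshold under any of the alternatives, and the smallest adjusted p was 0.223, for ACTG2. At the unadjusted threshold 1 passed, the brighter ACTG2 probe set. Its unadjusted p over 15 alternatives ran from 0.000288 (limma with the replicate block) to 0.126 (the methods' t-test). It was above 0.05 under 7 of them (no trend, array weights, the methods' t-test, and without PBS 1, PBS 2, Dox 2 or Dox 3). The median log2 difference of the 9 genes, MYLK included, stayed below 0, between -0.25 and -0.08. With the replicate number as a block (replicate block) it was -0.15, and no call changed. The block could not move this median, because each replicate number held 1 PBS and 1 Dox array. Leaving out single arrays moved the median from -0.23 to -0.09, and that of the 8 genes without MYLK from -0.25 to -0.05 (without PBS 1). The replicate block, no trend, the t-test and leaving out dim probe sets cannot move the difference of a single probe set. Of 12 single probe set differences, 6 kept their sign throughout. The others turned at some setting, and the cause was not tested: CNN1 was -0.26 with array weights and -0.80 to 1.31 when arrays were left out, TAGLN -0.013 to 0.63, MYL9 -0.12 to 0.37, the dimmer CALD1 probe set -0.051 to 0.57 and the dimmest SMTN probe set -0.84 to 0.28, while the mean over the CALD1 probe sets was 0.021. ACTG2 ranged from -2.74 without PBS 3 to -1.34 without Dox 3. The number of arrays, 3 a group, limits what could be detected, and the MYLK signals did not exceed background. Among all probe sets tested, 14 passed when Dox 1 was left out and 0 under each other setting.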

Other observations

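The CNN1 signal of Dox 3 was set beside the rest of the array, a look chosen after the value was seen. Probe sets were taken from the brighter part of the array, judged on the 5 arrays other than the one in question (11999 probe sets each time). Among these, 9 had a signal on Dox 3 at least as far above the next highest array as CNN1, whereas 1 had such a lead on Dox 1 and 0 on each of the other 4 arrays. Of the 9, 3 carry a single gene symbol. HSP70.2, an inducible heat shock protein, read 3430.6 on Dox 3 and 246.3 to 340.6 elsewhere. TNFRSF12A, the receptor of the cytokine TWEAK, read 1435.9 and 65.4 to 189.1. The other was CNN1 itself. HSPA6, of the same family as HSP70.2, was above the array median on Dox 3 alone, where it read 963.7, and read 4.8 to 15.5 elsewhere. Named genes outside the heat shock group led on Dox 3 too. NANOS1, also not among the 9, read 323 there and 12.5 to 17.9 elsewhere. RCAN1 and the cochaperone DNAJB1 had smaller leads than CNN1, 6.90-fold and 6.74-fold. RCAN1 read 164.2 on Dox 3 and 9.6 to 23.8 elsewhere, and DNAJB1 619.6 and 60.7 to 91.9. Probe sets of IFRD1 and FOSL2 followed. These are values of 1 animal and carry no test.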
